A study of Homo sapiens with 36 samples.

Results

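The transcripts of HEXIM1 and of the P-TEFb elongation complex were measured on oligonucleotide arrays in U373 glioblastoma cells, before and after ultraviolet light. The cells were with or without exogenous CC3 (also named TIP30), which the study describes as a pro-apoptotic protein. The genes were taken by name, as probes whose platform symbol or older symbol was one of 9 members: HEXIM1, HEXIM2, CDK9, CCNT1, CCNT2, LARP7, MEPCE, AFF4 and ELL2. Values were found for 7 of the 9 members, out of 8741 genes with values in the series, and each was read by 1 probe. HEXIM2 had no probe, the AFF4 probe was blank on every array, and ELL2 was measured only on the untreated arrays, which left 6 members measured before and after UV. Only RNA was measured on these arrays, so every level below is that of a transcript and protein levels of the members were not examined. HEXIM1 was chosen by its large UV change in both clones on these same arrays, so its UV changes are described here with no test, and the other members were added by name.

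The release of paused RNA polymerase II into productive elongation depends on P-TEFb, a kinase made of CDK9 and a cyclin T (CCNT1 or CCNT2). Much of the cell's P-TEFb is held inactive in a particle built on the 7SK RNA, in which HEXIM1 or HEXIM2 blocks the kinase, MEPCE caps the RNA and LARP7 protects its end. UV light is known to free P-TEFb from this particle in cultured cells, and the freed kinase can join the super elongation complex, for which AFF4 is the scaffold and ELL2 an elongation factor.

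The study compared U373neo, a clone carrying the neo vector alone, with U373cc3, a clone that expresses exogenous CC3 constitutively, each untreated or harvested 2 h after a UV dose that the sample labels give as 20 J/m2 (the study's methods give a lower dose). The 36 arrays came from 12 cultures, 3 for each of the 4 groups, with 3 arrays per culture. Both lines are single clones of U373, so a difference between them cannot be told apart from a difference between clones, and p-values measure the spread between cultures of a clone. The probe for the CC3 gene itself (HTATIP2) was blank on all arrays, as were the probes of all 7 astrocyte and glioma markers examined (0 of 7 with values). Neither CC3 expression nor the cell type could therefore be checked on the arrays. The study examined CC3 protein in both clones by Western blot and describes moderate levels in U373cc3.

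The promoters of the 2 members with the largest UV changes in U373neo are shown as the 250 bases before the RefSeq start site (build GRCh38.p14, both on the + strand), because HEXIM1 alone among the members' windows held a TATAAA box. Capitals mark TATAAA as the TATA box, CCAAT as the letters bound by NF-Y and GGGCGG as a GC box, on either strand (ATTGG is CCAAT on the other strand), and no match overlapped another.
HEXIM1, chr17:45148225-45148474: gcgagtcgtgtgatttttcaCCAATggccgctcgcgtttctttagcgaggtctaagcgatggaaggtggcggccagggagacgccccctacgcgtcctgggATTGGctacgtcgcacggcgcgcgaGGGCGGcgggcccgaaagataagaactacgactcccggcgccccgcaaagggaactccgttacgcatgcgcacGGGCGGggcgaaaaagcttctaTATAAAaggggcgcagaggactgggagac
CDK9, chr9:127785784-127786033: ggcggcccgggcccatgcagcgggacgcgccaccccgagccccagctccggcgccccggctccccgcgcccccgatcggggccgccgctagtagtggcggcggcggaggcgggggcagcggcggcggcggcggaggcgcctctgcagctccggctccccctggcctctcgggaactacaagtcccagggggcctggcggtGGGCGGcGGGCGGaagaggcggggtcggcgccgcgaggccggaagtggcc
The TATAAA of HEXIM1 began 29 bases before its start site, and 10.7% of 35116 RefSeq promoter windows of this length held that motif. CCAAT was present in 32.0% of windows and began 230 and 149 bases before the HEXIM1 start, whereas CDK9 had none. GGGCGG was found in 42.6% of windows and occurred in 2 copies in each promoter. The cAMP-response letters TGACGTCA (1.65% of windows), the AP-1 letters TGANTCA (6.57%) and the E-box CACGTG (6.34%) were searched on both strands and occurred in neither printed window. The CDK9 window was 82.0% G and C, against 62.4% for HEXIM1.

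HEXIM1, the inhibitor of P-TEFb, was the member with the largest UV change in both clones. On a scale on which all arrays were normalized together, U373neo replicates gave intensities of 873, 772 and 688 untreated and 4467, 4465 and 4409 after UV. U373cc3 replicates gave 612, 557 and 669 untreated and 4710, 4050 and 4712 after UV. Every UV replicate lay far above every untreated one in both clones. HEXIM1 was chosen by this change, so this separation and the intervals below are description and no test. The mean log2 change was 2.52 in U373neo (95% confidence interval 2.30 to 2.74), 5.74-fold, and 2.87 in U373cc3 (2.66 to 3.09), 7.33-fold, n = 3 cultures per group. These changes ranked 4 from the top of 11602 probes in U373neo and 1 in U373cc3. On the deposited scale, with untreated and UV arrays scaled apart, the same changes were 2.37 and 2.72.

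**Figure D1:**
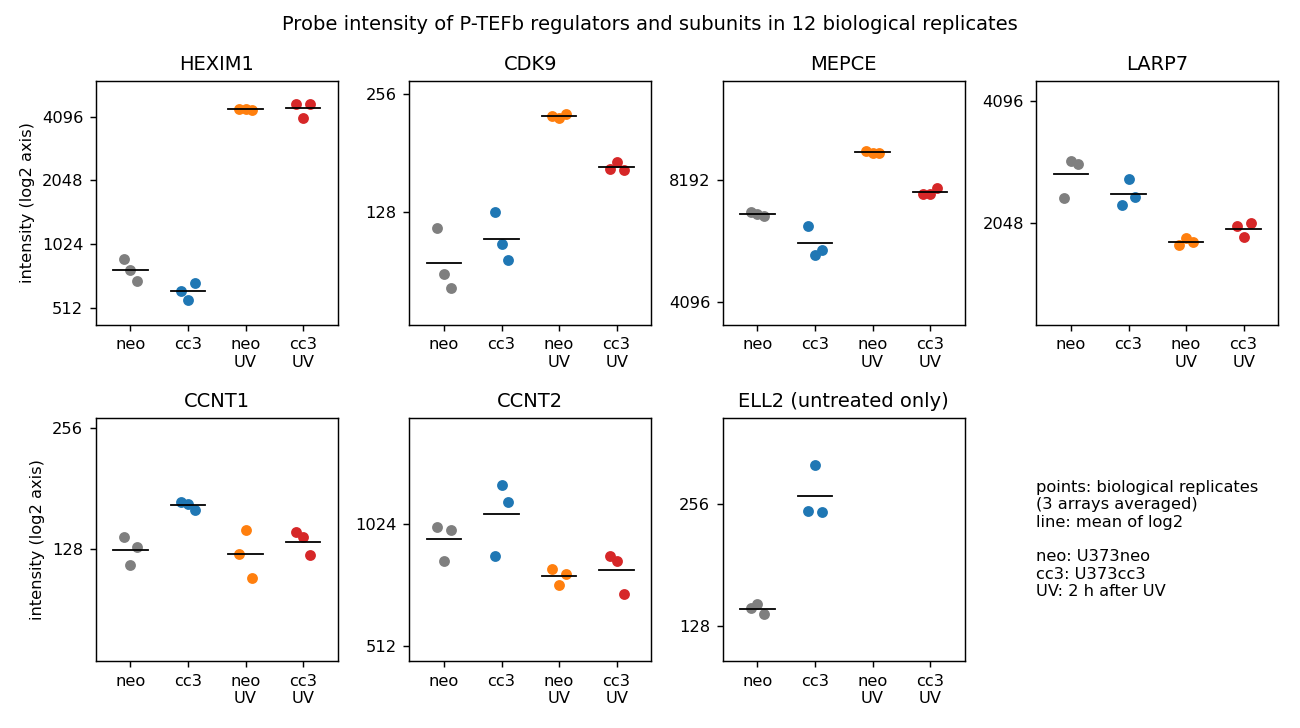
Intensity of each measured member on a log2 axis in the 12 biological replicates (points, 3 arrays averaged) with the mean of the log2 values (line), for U373neo and U373cc3, untreated and 2 h after UV. HEXIM1 lay between 557 and 873 untreated and between 4050 and 4712 after UV, while ELL2 was measured on untreated arrays only and is shown as deposited.

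HEXIM1 started lower in U373cc3 and reached the same range in both clones after UV. The deposited intensities of the untreated cultures were 844 ± 99.4 in U373neo and 664 ± 60.8 in U373cc3 (SD, n = 3), with no overlap between the replicates. The level was 1.27-fold lower in U373cc3 (log2 -0.34, SE 0.10, adjusted p = 0.0189, limma). This call was lost without U373cc3 untreated replicate 2 (-0.28, adjusted p = 0.0765) and without U373neo untreated replicate 1 (-0.26, adjusted p = 0.0621). After UV the deposited means were 4326 ± 35.4 and 4376 ± 397, and the replicates overlapped. Their difference was 0.012 on the log2 scale (95% confidence interval -0.21 to 0.23, adjusted p = 0.941). The UV change was 0.35 larger in U373cc3 (0.04 to 0.66), which did not pass the adjusted threshold (adjusted p = 0.152). The labels carry chip serial numbers in 3 ranges (A, B and C) that were unevenly spread over the groups. After UV, all 9 U373neo arrays were in range A. Of the U373cc3 UV arrays, 3 were in range A, all of replicate 3, and 6 in range B. Within the ranges, the untreated clone difference was -0.40 in A, 0.13 in B and -0.44 in C. U373neo had 1 untreated array in range B, and U373cc3 had 1 in range C.

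CDK9, the kinase of P-TEFb, followed HEXIM1 in rank among the members. Its replicates in U373neo read 117, 89.1 and 82.0 untreated and 225, 222 and 228 after UV. In U373cc3 they read 128, 106 and 96.9 untreated and 165, 172 and 164 after UV. The UV replicates exceeded all untreated ones in each clone, and those of U373neo exceeded those of U373cc3. CDK9 rose 2.37-fold in U373neo (log2 1.25, SE 0.13, adjusted p = 6.43e-06) and 1.53-fold in U373cc3 (0.61, SE 0.13, adjusted p = 0.00159). The rise was smaller in U373cc3 (difference of the log2 changes -0.63, 95% confidence interval -1.02 to -0.25), which missed the threshold (adjusted p = 0.0572). It passed when single arrays were fitted with the replicate as a random block (adjusted p = 0.00878) and without U373neo untreated replicate 1 (-0.78, adjusted p = 0.0163). The CDK9 probe was dim: only 0.764% of probes with untreated values were dimmer.

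The cyclins that pair with CDK9 did not rise. CCNT1 replicates in U373neo read 137, 117 and 130 untreated and 125, 143 and 109 after UV, and its change was -0.03 on the log2 scale (adjusted p = 0.815). In U373cc3 they read 168, 166 and 160 untreated and 141, 137 and 124 after UV, with no overlap, and CCNT1 fell 1.23-fold (log2 -0.30, SE 0.10, adjusted p = 0.0209). That call was lost without U373cc3 untreated replicate 1 (adjusted p = 0.0555), replicate 2 (0.0529) or UV replicate 3 (0.0792), on serial range A of the chips (0.109), and when each array was centred on its median (-0.12, adjusted p = 0.32), a scaling that moved the median UV change of all probes from 0.067 to 0.19 in U373neo and from 0.061 to 0.20 in U373cc3. CCNT1, like CDK9, was among the dimmer probes, with 8.14% of probes below it.

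CCNT2 had more signal. Its U373neo replicates were 1008, 830 and 992 untreated and 792, 725 and 772 after UV, a change of -0.30 (SE 0.14) that missed the threshold (adjusted p = 0.0859) although the replicates did not overlap, and that was -0.54 (adjusted p = 0.00557) on the deposited scale. Its U373cc3 replicates were 856, 1277 and 1165 untreated and 857, 833 and 690 after UV, and here they overlapped. CCNT2 fell 1.37-fold in U373cc3 (log2 -0.46, SE 0.14, adjusted p = 0.0164). This call was lost without U373cc3 untreated replicate 2 (adjusted p = 0.0722), replicate 3 (0.058) or UV replicate 3 (0.0699). It was also lost with the median of the arrays of each culture (-0.38, adjusted p = 0.0543). The fall did not pass by the test of the methods, before or after Benjamini-Hochberg adjustment. On single arrays of serial range A it was -0.59, with U373cc3 UV arrays of replicate 3 only. In U373neo, leaving out U373cc3 untreated replicate 1, which alters the shared spread only, brought the adjusted p to 0.0271.

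The transcripts of 2 proteins of the 7SK particle moved in opposite directions. MEPCE, the enzyme that caps the 5' end of 7SK RNA, gave 6843, 6776 and 6683 in untreated U373neo and 9672, 9582 and 9564 after UV. In U373cc3 it gave 6323, 5371 and 5513 untreated and 7602, 7575 and 7846 after UV. The UV replicates again exceeded the untreated ones in both clones. MEPCE rose 1.42-fold in U373neo (log2 0.51, SE 0.068, adjusted p = 5.7e-05) and 1.34-fold in U373cc3 (0.42, SE 0.068, adjusted p = 0.000289). LARP7, which binds the 3' end of 7SK RNA, gave 2364, 2915 and 2866 in untreated U373neo and 1814, 1879 and 1842 after UV, with no overlap. In U373cc3 it gave 2267, 2631 and 2380 untreated and 2014, 1894 and 2052 after UV, again without overlap. LARP7 fell 1.47-fold in U373neo (log2 -0.55, SE 0.088, adjusted p = 0.000213) and 1.22-fold in U373cc3 (-0.29, SE 0.088, adjusted p = 0.0161). The fall in U373cc3 did not pass without U373cc3 untreated replicate 2 (adjusted p = 0.0684) or UV replicate 2 (adjusted p = 0.0559).

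Counted over the 6 members, UV in U373neo gave 3 higher (HEXIM1, CDK9, MEPCE), 1 lower (LARP7) and 2 that did not pass, where 59.5% of all 11602 probes passed, 32.8% higher and 26.7% lower. In U373cc3 the same 3 were higher and LARP7, CCNT1 and CCNT2 were lower, against 57.7% of all probes, 30.8% higher and 26.9% lower. Replicates did not overlap for 5 of 6 members in each clone, when 64.2% of probes in U373neo and 65.4% in U373cc3 did not overlap. The background is high, and the counts include HEXIM1, which the choice of genes fixed. The 3 lower members in U373cc3 became 0 without U373cc3 untreated replicate 2, and 1 without U373cc3 UV replicate 3.

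**Figure D2:**
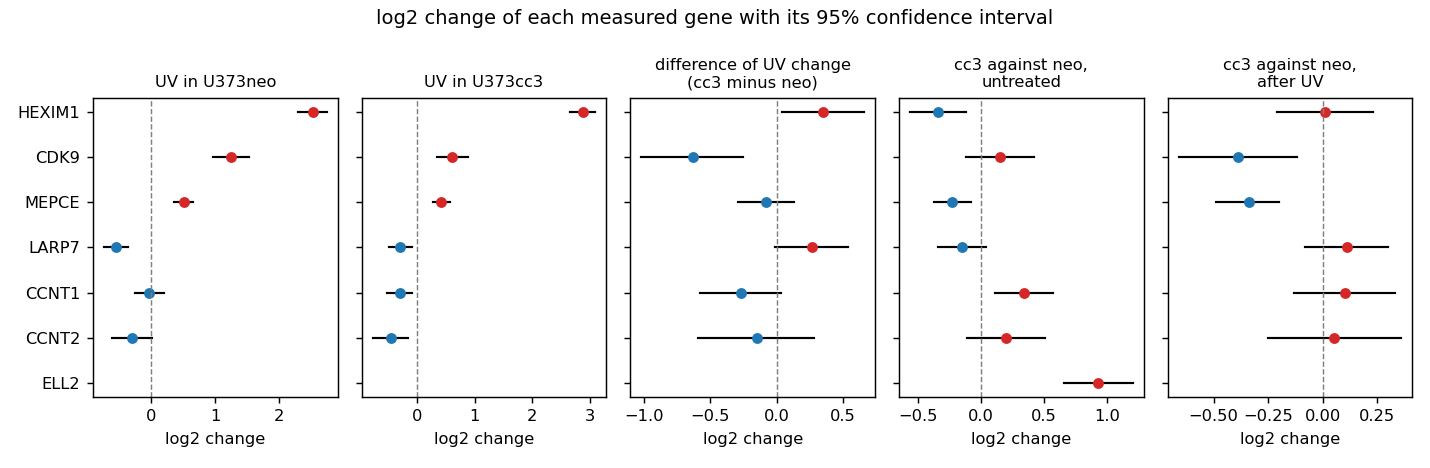
log2 change (points) with its 95% confidence interval (lines) for each measured member in 5 comparisons, each panel with its own axis range, red above 0 and blue below. HEXIM1 stood at 2.52 and 2.87 after UV, CDK9 at 1.25 and 0.61, and LARP7 at -0.55 and -0.29. HEXIM1 was chosen by its UV change, so its intervals after UV are no test.

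Between the clones, 4 of 7 members differed before UV, 2 higher and 2 lower in U373cc3, where 38.2% of 12300 probes passed, 20.8% higher and 17.3% lower. ELL2, an elongation factor of the super elongation complex, showed the largest difference. Its deposited intensities were 142, 145 and 137 in U373neo and 247, 320 and 245 in U373cc3, which did not overlap. The ELL2 probe was among the dimmer ones, with 14.3% of probes below it. ELL2 was 1.90-fold higher in U373cc3 (log2 0.93, SE 0.12, adjusted p = 0.000125) and stayed between 0.80 and 0.99 when any 1 replicate was left out. The same 4 members, of 7, had replicates that did not overlap, against 49.4% of probes.

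CCNT1 was 1.27-fold higher in untreated U373cc3 (deposited intensities 172, 168 and 164 against 141, 121 and 135, log2 0.34, adjusted p = 0.0224). The call was lost without U373cc3 untreated replicate 1 (adjusted p = 0.0629) or 2 (0.056), or U373neo untreated replicate 2 (0.0871). MEPCE was 1.17-fold lower (6360, 5452 and 5589 against 6853, 6792 and 6702, log2 -0.23, adjusted p = 0.0176). The MEPCE call was lost without U373cc3 untreated replicate 2 (adjusted p = 0.0718) or 3 (0.0656), and with only the groups compared (0.0666). It was also lost by the test of the methods after Benjamini-Hochberg adjustment. On single arrays of serial range A neither CCNT1 (0.37) nor MEPCE (-0.14) passed. CDK9 (0.15, adjusted p = 0.366), CCNT2 (0.20, 0.278) and LARP7 (-0.15, 0.183) did not pass. Leaving out 1 replicate moved these values to between 0.03 and 0.28 for CDK9, 0.084 and 0.37 for CCNT2 and -0.24 and -0.10 for LARP7. CCNT2 passed without U373cc3 untreated replicate 1 (0.37, adjusted p = 0.0331). LARP7 passed without U373neo untreated replicate 1 (-0.24, adjusted p = 0.0237) and with serial range in the model (-0.18, 0.0401). CDK9 passed on serial range A (0.41), a fit on single arrays of few cultures. Of 4 melanocyte markers, TYRP1 averaged a deposited intensity of 994 in U373neo and 1998 in U373cc3 untreated, and 1150 and 2116 after UV, MITF gave 118 and 153 untreated only, and DCT and PMEL were blank. Their part in the clone differences was not tested.

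After UV, 2 of 6 members differed between the clones, both lower in U373cc3, where 38.0% of 12343 probes passed, 19.8% lower and 18.2% higher. MEPCE was 1.27-fold lower (deposited 7634, 7605 and 7896 against 9841, 9745 and 9722, log2 -0.34, adjusted p = 0.00165). CDK9 was 1.31-fold lower (162, 169 and 156 against 209, 212 and 217, log2 -0.39, adjusted p = 0.0253). All 9 U373neo UV arrays were in serial range A, beside 3 of U373cc3, all of replicate 3. The other 6 U373cc3 arrays were in range B, where clone and range cannot be told apart. Within range A the differences were -0.31 for MEPCE and -0.45 for CDK9. The CDK9 call was lost in 4 of the fits that left out a UV replicate: U373cc3 replicate 1 (adjusted p = 0.0606) or 3 (0.0733), and U373neo replicate 2 (0.0617) or 3 (0.0695). CCNT1 (0.10), CCNT2 (0.053) and LARP7 (0.11) gave adjusted p of 0.514, 0.806 and 0.354. Replicates did not overlap for 3 of 6 members, CDK9, MEPCE and LARP7, against 51.0% of probes. No member's UV change differed between the clones at the adjusted threshold in the limma fit (0 of 6), where 6.17% of 11602 probes passed, 2.18% with a larger and 3.99% with a smaller value in U373cc3. CDK9 and HEXIM1 were under the threshold before adjustment, in the limma fit and by the methods' test. By the methods' test, 2647 of 11602 probes were under it before adjustment. HEXIM1 was chosen by its UV changes, so its value here is a description.

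UV lesions block RNA polymerase II, so long genes are more exposed to a block than short ones, and the members differ widely in length. HEXIM1 spans 3625 bases, CDK9 4759 and MEPCE 5329, whereas LARP7 spans 20444, CCNT1 28250 and CCNT2 40521 (RefSeq, GRCh38.p14). In U373neo the median UV change fell from 0.36 on the log2 scale in the shortest 10% of genes (795 genes up to 5189 bases) to -0.44 in the longest 10%. In U373cc3 it was 0.27 in the shortest and -0.20 in the longest 10%. The 3 shorter members were higher after UV and none of the 3 longer ones was. Within the shortest 10% HEXIM1 had the highest change of 795 genes in both clones, which its choice by that change made likely beforehand. CDK9 exceeded 97.2% of that class in U373neo and 83.3% in U373cc3. Within their own length classes of 794 or 795 genes, MEPCE exceeded 68.9% and 69.3% of genes and LARP7 3.53% and 18.5%. The part of gene length in these changes was not tested.

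**Figure D3:**
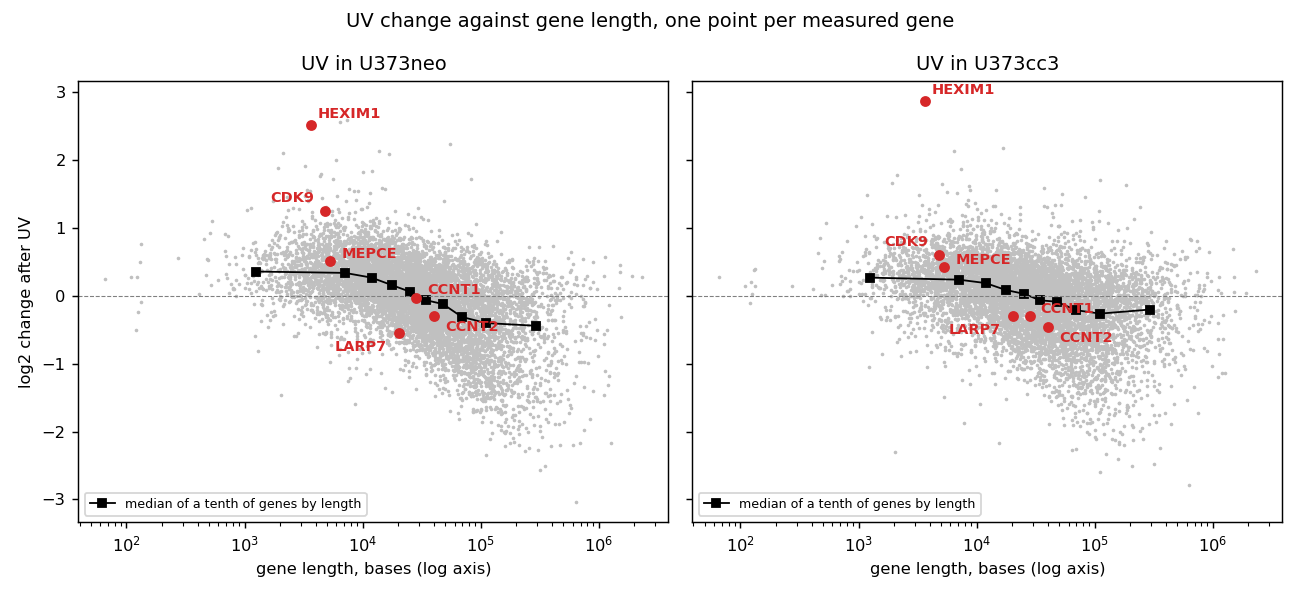
log2 change after UV against gene length (log axis) in U373neo and U373cc3, with all measured genes in grey, the 6 members in red and the median of each of 10 length classes as squares near the middle of the class. The medians ran from 0.36 to -0.44 in U373neo and from 0.27 to -0.20 in U373cc3. HEXIM1 lay above every other gene of the shortest class, which its choice by its UV change made likely beforehand.

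Across the 12 replicates, the 5 genes whose pattern was most like that of HEXIM1 by Pearson correlation of log2 intensity were H2AC4 (0.992), ST20-AS1 (0.989), ZNF598 (0.989), TMEM42 (0.987) and OGFOD2 (0.980). The points fall into untreated and UV sets, so these values mostly record the step between them, and none of the 5 was in the top 5 by Spearman correlation or with arrays centred on their medians. With centred arrays the same 5 genes still had Pearson values of 0.984 to 0.993, and other probes had higher ones. Their UV changes ranged from 0.47 (ZNF598, U373cc3) to 1.18 (TMEM42, U373neo), below those of HEXIM1. Among the members, the correlation with HEXIM1 was 0.894 for CDK9, 0.859 for MEPCE, -0.502 for CCNT1, -0.763 for CCNT2 and -0.872 for LARP7.

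Other genes of the elongation machinery were taken from 5 lists of 65 genes in all, of which 47 had untreated values and 45 values before and after UV. The super elongation complex list also holds ELL2 and AFF4. UV in U373neo raised 10 of 45 and lowered 20, and UV in U373cc3 raised 9 and lowered 20. The lists' median change was -0.16 and -0.19, beside medians of 0.039 and 0.021 over all 7986 genes, of which 62.3% and 58.0% passed (2575 higher and 2401 lower in U373neo, 2232 and 2397 in U373cc3). The counts of the single lists below are small and are to be read beside these shares. Of the 4 measured pausing factors, which hold polymerase near the start site, 3 rose and 1 fell in U373neo, and 2 rose and 1 fell in U373cc3. SUPT4H1 and SUPT5H, the subunits of DSIF, rose in both clones (SUPT4H1 0.64 and 0.57, SUPT5H 0.30 and 0.49 in U373neo and U373cc3). Of the NELF subunits, NELFA fell (-0.30 and -0.74), whereas NELFCD rose in U373neo (0.21, adjusted p = 0.0444) and gave 0.19 in U373cc3 (adjusted p = 0.0636).

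In the super elongation complex list no measured gene rose, and 4 of 5 fell in U373neo (80.0%) and 3 of 5 in U373cc3 (60.0%), or 4 of 5 with AFF1 read as below. MLLT3, a reader of acylated histones, fell in U373neo (log2 -1.91) and in U373cc3 (-1.12). ELL, an elongation factor related to ELL2, fell in both (-0.62 and -1.13), as did MLLT1, a relative of MLLT3 (-0.40 and -0.29). AFF1, a scaffold related to AFF4, changed by -1.50 in U373neo (SE 0.54, adjusted p = 0.0315). In U373cc3 the AFF1 change was -0.04 (adjusted p = 0.958), but 1 array of untreated U373cc3 replicate 1 read 16.9 beside 4952 and 6270 on its companions. With the median of the 3 arrays the changes were -1.48 and -0.84 (adjusted p = 4.07e-07 and 3.96e-05), and they differed between the clones by 0.63 (adjusted p = 0.0352).

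Of the other transcription kinases and cyclins, none rose and 5 of 10 fell in U373neo, and 1 rose and 6 fell in U373cc3 (7 of 10 passed). CDK13, which pairs with cyclin K, fell in both clones (-1.98 and -2.13). CDK8, the Mediator kinase, fell likewise (-1.55 and -1.36) and was already 2.00-fold lower in untreated U373cc3 (adjusted p = 2.34e-06). MNAT1 (-0.96 and -0.74) and CDK7 (-0.73 and -0.79) also fell in both clones, both parts of the kinase module of TFIIH. CCNL2 (-0.39) was lower and CCNL1 (0.20) higher in untreated U373cc3.

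Regulators of 7SK and of P-TEFb release gave 4 higher, 7 lower and 5 not passing of 16 in each clone, so that 68.8% passed. SRSF2, a splicing factor found with 7SK at promoters, rose in U373neo (0.69) and U373cc3 (0.99), and SRSF1 fell in both (-0.76 and -0.51). DDX21, a helicase that frees P-TEFb from 7SK, fell in both clones (-0.70 and -0.57). CDC37, a kinase chaperone, rose in both (0.69 and 0.27), as did PPP1CA, a phosphatase subunit that acts on CDK9 (0.62 and 0.58). In untreated cells BRD3 (-0.67) and PPP1CA (-0.59) were lower and CDC37 (0.47) higher in U373cc3. Among PAF1 complex and other elongation factors, 3 of 10 rose and 3 fell in U373neo (6 of 10 passed), and 2 rose and 3 fell in U373cc3 (5 of 10). IWS1, a partner of SUPT6H, fell in both clones (-1.08 and -1.01), as did LEO1 (-0.72 and -0.93) and RTF1 (-0.60 and -0.71), while TCEA2 rose in both (0.71 and 0.61). In untreated U373cc3, CTR9 (-0.87), SSRP1 (-0.79), PAF1 (-0.69), SUPT5H (-0.69) and NELFCD (-0.26) were lower than in U373neo, and EAF2 (0.44) and ELL (0.37) were higher. Over all lists 8 of 47 genes were higher and 11 lower in untreated U373cc3, 40.4% in all beside 40.0% of 8425 genes.

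**Figure D4:**
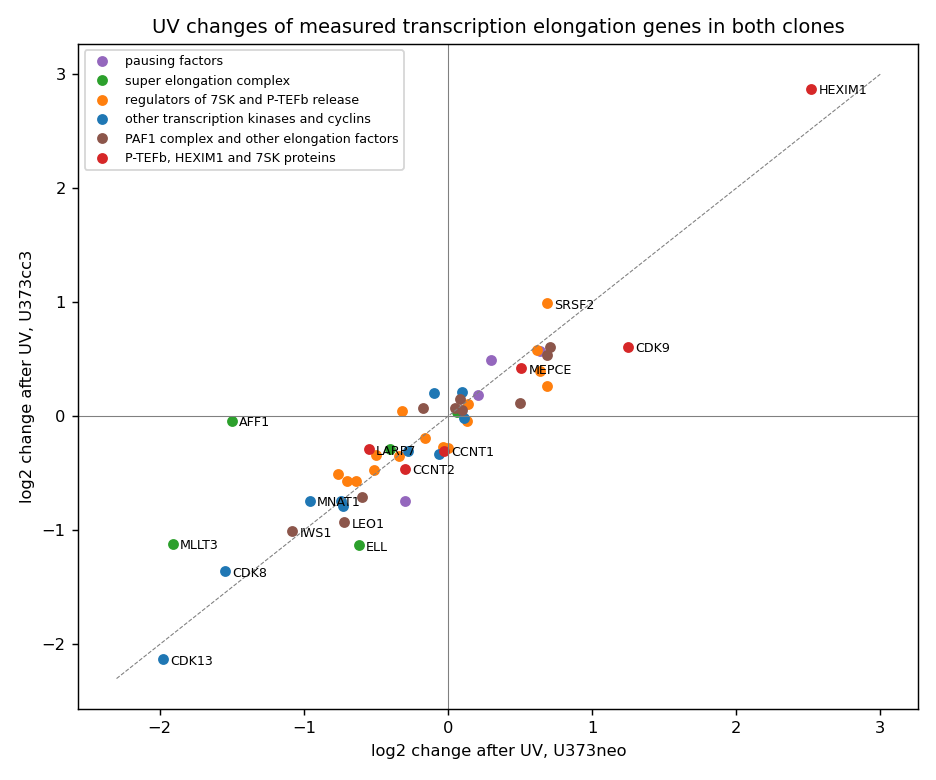
log2 change after UV in U373neo (horizontal) and U373cc3 (vertical) for the measured genes of the 5 elongation lists and the 6 members, coloured by list, with a dashed line of equal change. HEXIM1 lay at 2.52 and 2.87, CDK9 at 1.25 and 0.61, and CDK13 at -1.98 and -2.13, while AFF1 is drawn with the array that read 16.9 included.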

How the data were processed

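Total RNA of 12 cultures was labelled with Cy5 by the authors and hybridized in triplicate to Human OneArray chips. Per the study's methods, probe intensities were averaged and then quantile normalized by the authors with GeneSpring GX. The deposited values are linear intensities (10.9 to 65490), with array medians of 894.9 to 896.0 untreated and 746.3 to 748.1 after UV, so the treatments had been scaled apart. The reason for blank probes and any background subtraction: not given in the sources used here. Of 30968 probes, 13041 carried values and 9659 of these had 1 gene symbol (1486 updated through RefSeq GRCh38.p14). 3 probes with an older HEXIM1 name shared by other genes were not used.

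For UV comparisons the 36 arrays were brought to 1 quantile distribution over the 11602 probes valued under both treatments, and clone comparisons used the deposited values. Arrays of a replicate were averaged on the log2 scale and fitted with limma 3.58.1 (R 4.3.3), 4 group means, Benjamini-Hochberg over all probes, threshold 0.05. The fit was tested on simulated data. The number of arrays limits the precision. Levels were not compared between probes except to mark dim ones.

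The members, lists and tests were chosen with earlier results of these data known. Named genes were the members, the 3 largest changes past the threshold per list in each UV comparison and between untreated clones, and the 5 most like HEXIM1. Of markers of other cell types, 3 of 4 for neurons, 1 of 4 for leukocytes, 0 of 4 for epithelium, 1 of 3 for fibroblasts and 2 of 4 for melanocytes carried values. Alternatives were scaling, a filter on dim probes, the t-test of the methods, single arrays, the serial range of the arrays, a replicate block and leaving out each replicate.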

Additional observations from a re-analysis of the deposited data

Results flagged for a closer look

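Of 45 measured elongation genes of the lists, 3 had a UV change that differed between the clones by the limma interaction term. That was 6.67%, beside 6.52% of 7986 genes. MLLT3 fell less in U373cc3 (difference 0.78 on the log2 scale, SE 0.12, adjusted p = 0.00804). Its mean intensity on the joint scale went from 766 to 204 in U373neo and from 667 to 307 in U373cc3, n = 3 each. It passed in all 12 fits that left out 1 replicate (adjusted p 0.00493 to 0.0249). ELL fell more in U373cc3 (-0.51, SE 0.13, adjusted p = 0.0463), from 1714 to 788, beside 1326 to 861 in U373neo. NELFA also fell more in U373cc3 (-0.44, SE 0.11, adjusted p = 0.0415), from 306 to 184, beside 272 to 222. ELL and NELFA each passed in only 2 of the 12 fits without 1 replicate, with adjusted p up to 0.108 for ELL and 0.105 for NELFA. AFF1 did not pass (1.46, adjusted p = 0.26) with the array of untreated U373cc3 replicate 1 that read 16.9, but passed with the median of the 3 arrays (0.63, adjusted p = 0.0352) and without that replicate (0.55, adjusted p = 0.043). With 3 cultures per group, no single culture was examined as an outlier.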

How the results depend on the processing

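HEXIM1 kept its direction after UV in both clones under every setting tried, which its choice by that change made likely beforehand. Its UV change was 2.37 in U373neo and 2.72 in U373cc3 with the values as deposited, and 3.06 in U373cc3 on single arrays of serial range A. Without 1 replicate it ranged from 2.44 to 2.61 in U373neo and from 2.81 to 2.95 in U373cc3. Its untreated clone difference (-0.34) did not pass the threshold by the test of the methods, before or after Benjamini-Hochberg adjustment, and ranged from -0.43 to -0.26 without 1 replicate. After UV the clone difference ranged from -0.027 to 0.09 and so changed sign, at -0.026 and -0.027 without U373cc3 UV replicate 1 or 3. The difference of the UV change (0.35, 0.26 to 0.44 without 1 replicate) passed by an unadjusted t-test (0.35). On serial range A it was 0.51, with U373cc3 UV arrays of replicate 3 only. The cause of these changes was not tested.

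Counts of members moved as follows, leaving out serial range A, where the U373cc3 UV arrays were all of replicate 3. Lower after UV in U373neo (1): 2 as deposited, with only the groups compared and by the unadjusted t-test, 1 to 2 without 1 replicate. Lower after UV in U373cc3 (3): 0 to 3 without 1 replicate. Untreated, higher (2): 0 without the dimmest 25% of probes, which removes CCNT1 and ELL2, and 1 to 2 without 1 replicate. Untreated, lower (2): 1 with only the groups compared or the unadjusted t-test, 0 after its Benjamini-Hochberg adjustment, 0 to 2 without 1 replicate. After UV, lower (2): 1 without the dimmest probes and 1 to 2 without 1 replicate, and higher (0): 1 by the unadjusted t-test. Difference of the UV change, higher (0): 1 by the unadjusted t-test. Lower (0): 1 by the unadjusted t-test, on single arrays and with serial range in the model, and 0 to 1 without 1 replicate.

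Counts of listed genes moved in the same way, again leaving out serial range A. Untreated, higher (8): 5 with only the groups compared and 5 by the adjusted t-test, 4 to 9 without 1 replicate. Higher after UV in U373cc3 (9): 14 with arrays centred on their medians. Between clones after UV, higher (7): 4 to 8 without 1 replicate, and lower (11): 7 to 11 without 1 replicate. Of the 45 listed genes measured there, 40.0% passed in the limma fit, beside 41.1% of 8302 genes. Difference of the UV change, higher (1): 2 with the median of technical arrays or single arrays. It was 3 by the unadjusted t-test or with serial range in the model, and 1 to 2 without 1 replicate. Lower (2): 0 as deposited, centred, with the median of technical arrays or the replicate block. It was 1 with trend and robust options or the adjusted t-test, 6 by the unadjusted t-test and 0 to 2 without 1 replicate. Of the 5 genes most like HEXIM1, 0 were shared under Spearman correlation and 0 with centred arrays.

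Signs turned for small changes. CCNT1 in U373neo (-0.03, and -0.13 to 0.067 without 1 replicate) was 0.13 centred, 0.06 with serial range in the model and 0.05 on range A, and 0.022 and 0.067 without U373neo untreated replicate 1 or UV replicate 3. Between clones after UV, CCNT1 was -0.054 and CCNT2 -0.14 on range A, and CCNT2 ranged from -0.0064 to 0.15 without 1 replicate.

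Of probes past the threshold in U373neo and U373cc3, 55.1% and 53.4% were higher after UV, beside 42.2% and 38.6% as deposited and 65.5% and 66.6% with centred arrays. Replicate numbers did not pair the samples. Deviations from the group means correlated from -0.338 to 0.367 (median -0.0835) between same-numbered replicates of different groups. For other-numbered ones the correlations ran from -0.39 to 0.345 (median 0.04). With the replicate block 448 probes passed the difference of the UV change, against 716. Over all probes that count was 1404 on single arrays, 1803 with serial range in the model, 519 by the adjusted t-test and 2647 by the unadjusted one, and 230 to 977 without 1 replicate.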
